A study of Rattus norvegicus with 6 samples.

Results

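The 10 chemokine genes described here belong to the CXC and CX3C families and were followed in rat ovaries after overfeeding. They are Cxcl1, Cxcl2, Cxcl6, Cxcl9, Cxcl10, Cxcl11, Cxcl12, Cxcl13, Cxcl16 and Cx3cl1. The members were every probe set that the platform annotation maps to 1 of these 10 genes and to no other. There were 13 such probe sets for the 10 genes, out of 31042 probe sets tested and 14217 named genes, and 0 probe sets shared a member with another gene. Cxcl9 had 2 probe sets, Cxcl12 had 3 and each other member had 1.

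Ovary RNA was hybridized to 6 Affymetrix arrays, 3 from overfed and 3 from lean rats, each array holding 1 RNA pool. Overfed females received a liquid diet of 220 kcal per kg of metabolic body weight by total enteral nutrition, that is through a feeding tube, for 28 days. Lean females received 155 kcal in the same way and over the same time. After mating to lean males, ovaries of both groups were frozen at 4.5 days post coitum, so that every pool came from mated, tube-fed animals. The strain, the age of the rats and the number of animals per pool are not given in the labels used here, so the p-values measure the spread between pools.

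For each probe set the deposited values are logarithms, taken as log2, from which the median of the 6 arrays has been subtracted. Differences between pools are therefore known, whereas the level of a gene, its signal over background and the presence of ovarian or immune cell markers are not. Because the median of 6 values lies midway between the 2 middle pools, these 2 always have values of equal size and opposite sign. The SD over probe sets was 0.14 to 0.29, highest in overfed pool 1. The mean of the hybridization controls was -0.041, -0.055 and -0.25 in overfed pools 1 to 3, against 0.045, 0.060 and 0.50 in lean pools 1 to 3. The controls were thus lower in every overfed pool than in any lean pool, a technical offset that runs with diet. Its part in the differences between the groups was not tested. Overfed pool 1, by its SD, and lean pool 3, by its controls, stood apart, and each member's difference is also given without both of them. Leaving them out does not remove the offset.

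Chemokines are small secreted or membrane-bound proteins that direct the migration of leukocytes through G protein-coupled receptors. CXC chemokines with a glutamate-leucine-arginine (ELR) motif before the first cysteines, among them rat Cxcl1, Cxcl2 and Cxcl6, attract neutrophils through Cxcr2. Cxcl9, Cxcl10 and Cxcl11 are induced by interferons and attract activated T and NK cells through Cxcr3. Cxcl12 and Cxcl13 are homeostatic, acting on Cxcr4 and Ackr3 and on Cxcr5, and Cxcl16 and Cx3cl1 are made as transmembrane proteins with a chemokine domain on a mucin-like stalk. In the ovary, chemokines and leukocytes take part in ovulation and in the formation and regression of the corpus luteum.

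On the rat genome build GRCr8, 7 of the 10 member genes lie on chromosome 14. Cxcl11 (chr14:15973728-15976503), Cxcl10 (chr14:15989066-15991263) and Cxcl9 (chr14:16007166-16012077) are neighbours there. Cxcl2 (chr14:17465210-17467255), Cxcl1 (chr14:17477542-17479321) and Cxcl6 (chr14:17594959-17596417) form a separate group, and Cxcl13 lies at chr14:13912858-13917920. Cxcl12 is on chromosome 4, Cxcl16 on chromosome 10 and Cx3cl1 on chromosome 19. All are annotated as protein coding.

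The 250 bases upstream of the RefSeq start are shown for the 3 interferon-induced neighbours, since 2 of them were higher in every overfed pool than in any lean pool. They are from RefSeq's GRCr8 assembly, on the plus strand, 5′ to 3′. Capitals mark matches to the core of the interferon-stimulated response element, which interferon regulatory factors bind and which was searched as GAAA, any 2 bases and GAAA, and to the kappaB consensus, which NF-kappaB binds. Each was searched on both strands.
Cxcl10, chr14:15988816-15989065: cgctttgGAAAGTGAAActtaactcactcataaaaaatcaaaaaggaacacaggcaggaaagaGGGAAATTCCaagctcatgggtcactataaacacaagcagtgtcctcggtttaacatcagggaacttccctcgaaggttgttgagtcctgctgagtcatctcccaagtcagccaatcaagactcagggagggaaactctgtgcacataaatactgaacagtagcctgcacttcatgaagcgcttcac
Cxcl11, chr14:15973478-15973727: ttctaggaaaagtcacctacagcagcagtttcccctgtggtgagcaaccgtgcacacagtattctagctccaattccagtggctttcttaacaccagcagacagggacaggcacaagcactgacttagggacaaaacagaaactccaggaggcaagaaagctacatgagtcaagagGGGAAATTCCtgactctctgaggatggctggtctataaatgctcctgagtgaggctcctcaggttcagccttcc
Cxcl9, chr14:16006916-16007165: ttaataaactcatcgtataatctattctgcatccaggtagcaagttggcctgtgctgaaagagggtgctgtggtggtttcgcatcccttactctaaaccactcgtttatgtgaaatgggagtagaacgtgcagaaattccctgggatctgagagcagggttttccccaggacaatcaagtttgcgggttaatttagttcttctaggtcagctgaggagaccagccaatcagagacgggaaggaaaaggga

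Cxcl10 held both motifs in this window, with GAAAGTGAAA beginning 243 bases and GGGAAATTCC 187 bases before the start. Cxcl11 held GGGAAATTCC 74 bases before the start and no match to the interferon-stimulated element. Cxcl9 had no match to either motif in these 250 bases. The ELR genes had a kappaB match close to the start, shown so that its letters can be compared with those in Cxcl10 and Cxcl11.
Cxcl1, 84 bases before the start: GGGAATTTCC
Cxcl6, 88 bases before the start: GGGAATTTCC
Cxcl2, 74 bases before the start: GGGGATTTCC
Each of these also matched on the opposite strand, 1 base nearer the start. Cxcl12, Cxcl13 and Cxcl16 had no match to either motif. The window searched for Cx3cl1, chr19:10242821-10243070, had none either, but it lay within the annotated gene (chr19:10233326-10244856). The bases upstream of the whole Cx3cl1 gene were therefore not searched. Among 33465 promoter windows of the same length, 3.41% held the interferon-stimulated element and 3.54% held the kappaB consensus. A match is a description of letters and not of binding.

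Of the 13 member probe sets, 3 had an unadjusted p under 0.05 in limma, Cxcl10 and Cxcl11 higher and Cx3cl1 lower in overfed ovaries. That is 23.1% of the members, against 6.67% of all probe sets tested, of which 3.31% had a higher and 3.36% a lower value in overfed ovaries. In the same 3 probe sets the groups did not overlap, against 12.7% of all probe sets (7.35% higher and 5.33% lower in overfed ovaries). None of the 13 passed after Benjamini-Hochberg adjustment over all 31042 probe sets, where 0.0% did and 2070 had an unadjusted p under 0.05. The median difference of the 13 was 0.12 on the log2 scale, against 0.015 over all probe sets, with 9 members higher and 4 lower. The members were chosen with earlier results of these data known, so the count describes the 10 genes and is no test of the family.

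**Figure D1:**
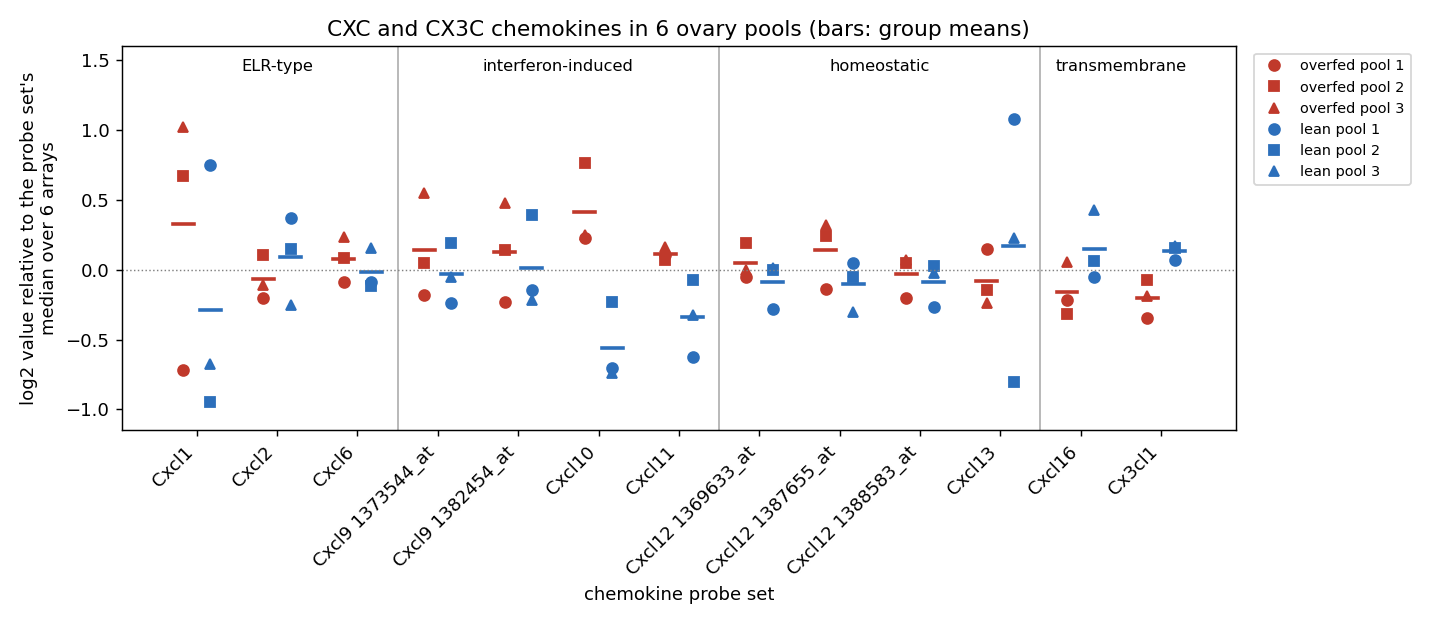
Log2 value of each chemokine probe set relative to its own median over the 6 arrays (vertical axis), with overfed pools in red left of lean pools in blue, horizontal bars at the group means of 3 pools and vertical lines between the functional classes. Cxcl10 and Cxcl11 lie higher in all 3 overfed pools than in any lean pool, Cx3cl1 lies lower, and Cxcl1 and Cxcl13 spread widest.

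Cxcl10, the interferon-inducible ligand of Cxcr3 also known as IP-10, differed most among the members. Its probe set 1387969_at had values of 0.23, 0.77 and 0.25 in overfed pools 1 to 3, against -0.71, -0.23 and -0.74 in lean pools 1 to 3. Every overfed pool was above every lean pool, with overfed pool 2 highest and lean pools 1 and 3 close together at the bottom. The means were 0.42 ± 0.30 in overfed and -0.56 ± 0.28 in lean ovaries (SD, n = 3 pools each). The difference was 0.97 (SE 0.19, 95% interval 0.52 to 1.43), or 1.97-fold, with a limma unadjusted p of 0.0015 and an adjusted p of 0.623. It ranked 48 of 31042 by p and 13 from the top by size of increase. The two-sided exact permutation test gave p = 0.1, which is as small as 3 pools against 3 allow. With any 1 pool left out the difference was 0.80 to 1.14, and without overfed pool 1 and lean pool 3 it was 0.98.

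Cxcl11, the Cxcr3 ligand of highest affinity in humans, showed the same direction at a smaller size. Its probe set 1379365_at had 0.10, 0.071 and 0.16 in overfed pools 1 to 3, against -0.62, -0.071 and -0.32 in lean pools 1 to 3. The overfed pools were close to each other and lay above all lean pools, although lean pool 2 came near to overfed pool 2. The difference was 0.45 (SE 0.14, 95% interval 0.12 to 0.78), or 1.37-fold, with a limma unadjusted p of 0.0151, an adjusted p of 0.671 and an exact permutation p = 0.1. When overfed pool 1 and lean pool 3 were both left out, the difference was 0.46 and the unadjusted p was 0.0579.

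Cxcl9, the ligand mainly driven by interferon gamma, overlapped between the groups in both of its probe sets. In 1373544_at it had -0.18, 0.052 and 0.55 in overfed pools 1 to 3, against -0.23, 0.19 and -0.052 in lean pools 1 to 3. Overfed pool 3 was the highest of the 6, while overfed pool 1 was nearly as low as lean pool 1. The difference was 0.17 (95% interval -0.30 to 0.64, limma adjusted p = 0.916), and it was 0.12 (95% interval -0.40 to 0.64) in 1382454_at. Without overfed pool 3 these became -0.034 and -0.053, and without overfed pool 1 and lean pool 3 they were 0.32 and 0.19.

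Whether Cxcl10 or Cxcl11 moved apart from Cxcl9, taken at 1373544_at, was examined on the difference of the genes' values within each pool. The 2 pairs were chosen after the values were seen. With 3 pools against 3 the exact permutation test cannot give a p under 0.1, so it cannot decide this. Cxcl10 minus Cxcl9 was 0.41, 0.72 and -0.30 in overfed pools 1 to 3, against -0.47, -0.42 and -0.69 in lean pools 1 to 3. The groups did not overlap, and the 2 group means lay 0.80 apart (exact permutation p = 0.1, adjusted p = 0.2 over the 2 pairs). Cxcl11 minus Cxcl9 averaged -0.028 ± 0.34 in overfed and -0.31 ± 0.070 in lean ovaries (SD, n = 3 pools each), with an exact permutation p = 0.3.

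The class mean of the 3 interferon-induced genes was 0.051, 0.30 and 0.32 in overfed pools 1 to 3, against -0.52, -0.036 and -0.37 in lean pools 1 to 3. Of 28 listed interferon signalling genes and targets 26 were measured, 20 of them higher and 6 lower in overfed ovaries. An unadjusted p under 0.05 in limma was reached by 11, all higher, against 7.15% of all genes at 1 probe set each (2.67% higher and 4.47% lower). That count was 4 without lean pool 1, 6 without overfed pool 3, 7 without lean pool 3 and 7 with the pool number as a block. Their median difference was 0.14, against 0.0070 over all genes, and 0 passed after adjustment over all probe sets. Isg15, which is conjugated to proteins like ubiquitin, was at 0.71 (SE 0.14), Ifit3, an antiviral interferon-induced protein, at 0.52 (SE 0.16) and the guanylate-binding GTPase Gbp2 at 0.45 (SE 0.13). The antiviral GTPase Mx2, named after its values were seen, was the lowest at -0.26, with every overfed pool below every lean pool. Ifng, the gene of interferon gamma, named after its values were seen, was at -0.0047 (SE 0.077).

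**Figure D2:**
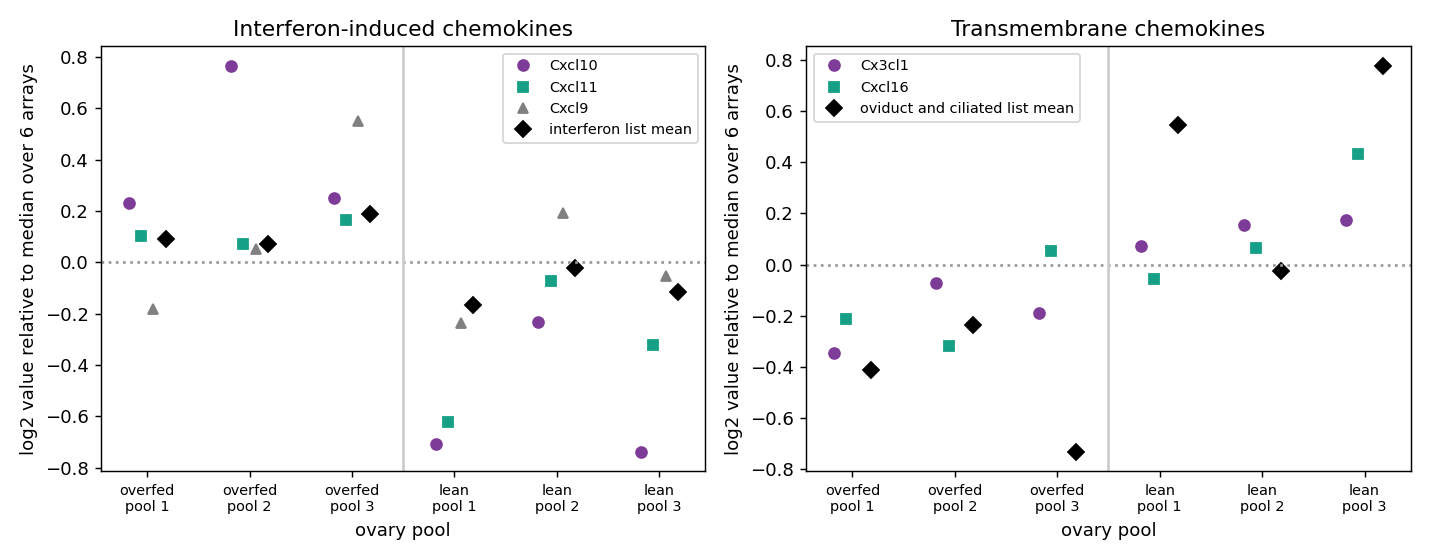
Log2 values relative to each probe set's median over 6 arrays (vertical axis) in the 3 overfed and then the 3 lean pools (horizontal axis), for the interferon-induced chemokines beside the mean of 26 interferon genes, and for the transmembrane chemokines beside the mean of 9 oviduct and ciliated epithelium genes. Cxcl10, Cxcl11 and the interferon mean are above 0 in all overfed pools and below 0 in all lean pools, and Cx3cl1 lies below 0 in all overfed pools and above 0 in all lean pools.

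Cx3cl1, or fractalkine, is an adhesion molecule when membrane-bound and attracts monocytes and NK cells bearing Cx3cr1 when shed. Its probe set 1368200_at had -0.35, -0.072 and -0.19 in overfed pools 1 to 3, against 0.072, 0.15 and 0.17 in lean pools 1 to 3. Every overfed pool was below every lean pool, and the lean pools lay close together. The difference was -0.34 (SE 0.096, 95% interval -0.56 to -0.11), or 0.793-fold, with a limma unadjusted p of 0.01, an adjusted p of 0.645 and an exact permutation p = 0.1. It ran from -0.40 to -0.26 with any 1 pool left out. When overfed pool 1 and lean pool 3 were both left out it was -0.24, with an unadjusted p of 0.0598.

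Cxcl16, the ligand of Cxcr6 and a scavenger of oxidized lipoprotein, had -0.21, -0.32 and 0.055 in overfed pools 1 to 3, against -0.055, 0.065 and 0.43 in lean pools 1 to 3. The groups overlapped through overfed pool 3, which was above lean pool 1. The difference was -0.31 (SE 0.16, 95% interval -0.67 to 0.061, limma unadjusted p = 0.0894, adjusted p = 0.811). With the pool number as a block its unadjusted p was 0.0253. The unadjusted p was also under 0.05 without lean pool 1 (0.0498) and without overfed pool 3 (0.0434), whereas the difference was -0.16 without lean pool 3 and -0.14 without overfed pool 1 and lean pool 3.

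Genes listed for the oviduct and ciliated epithelium were also lower in the overfed pools. Ovgp1, Dnah5, Spag6 and Ccdc39 of that list were not found, and the tissue from which the measured genes came was not tested. The mean of the 9 measured of 13 listed genes was -0.41, -0.23 and -0.73 in overfed pools 1 to 3, against 0.55, -0.026 and 0.78 in lean pools 1 to 3. All 9 were lower, and 7 had an unadjusted p under 0.05 in limma, against 7.15% of all genes (4.47% lower). The count was 4 without lean pool 3 and 4 without overfed pool 3. Among the 7 were the ciliogenesis factor Foxj1 at -1.06 (SE 0.21), the mucin Muc1 at -0.97 (SE 0.23) and the axonemal gene Tekt1 at -1.16 (SE 0.28). Their part in the values of Cx3cl1 and Cxcl16 was not tested. The 9 measured endothelial genes had a median difference of -0.0035, with 0 at an unadjusted p under 0.05, against 7.15% of all genes. Among them Vwf at 0.23, Esam at 0.15 and Pecam1 at -0.12 had the lowest p-values. In a whole organ, fewer cells of a type and less RNA per cell cannot be told apart.

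Each ELR member overlapped between the groups. Cxcl1, known in rats as CINC-1, had -0.71, 0.67 and 1.03 in overfed pools 1 to 3, against 0.75, -0.95 and -0.67 in lean pools 1 to 3. Each group held both high and low pools, with overfed pool 1 low and lean pool 1 high. Its range over the 6 pools, 1.97, was larger than that of 99% of the probe sets tested, and its difference of 0.62 (SE 0.57, 95% interval -0.72 to 1.96, limma adjusted p = 0.885) leaves a change in either direction possible. Leaving out overfed pool 3 or lean pool 2 gave 0.27 and 0.29, leaving out pool 1 of either group gave 1.14, and leaving out overfed pool 1 together with lean pool 3 gave 0.95.

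Cxcl2, the rat counterpart of macrophage inflammatory protein 2, had -0.20, 0.11 and -0.11 in overfed pools 1 to 3, against 0.37, 0.15 and -0.25 in lean pools 1 to 3. Lean pool 1 was highest and lean pool 3 lowest, so that the lean values enclosed all overfed values, and the difference was -0.16 (95% interval -0.56 to 0.25). Leaving out lean pool 1 gave -0.014, overfed pool 1 gave -0.089 and overfed pool 2 gave -0.24. Lean pool 3 left out alone gave -0.33, with an unadjusted p of 0.0466, and left out together with overfed pool 1 gave -0.26. Cxcl6, called LIX in rodents, had -0.086, 0.086 and 0.24 in overfed pools 1 to 3, against -0.087, -0.12 and 0.16 in lean pools 1 to 3. Its pools overlapped, with a difference of 0.093 (95% interval -0.19 to 0.38). With 1 pool left out it ran from 0.015 without overfed pool 3 to 0.18 without lean pool 3 or overfed pool 1. Without overfed pool 1 and lean pool 3 it was 0.26, with an unadjusted p of 0.0491. Over all pools the limma adjusted p was 0.908 for Cxcl2 and 0.925 for Cxcl6.

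The class mean of the 3 ELR genes was -0.33, 0.29 and 0.38 in overfed pools 1 to 3, against 0.35, -0.31 and -0.26 in lean pools 1 to 3, and overlapped. Cxcl1, Cxcl2 and Cxcl3 are close paralogs, and whether their probe sets share signal was not tested. Among the NF-kappaB signalling genes and targets, 1 of 23 measured had an unadjusted p under 0.05 in limma, the monocyte chemokine Ccl2 at 0.80 (SE 0.17), against 7.15% of all genes. The subunit Nfkb2 was at -0.29 and the interleukin receptor Il1r1 at 0.22, and the list's median was 0.072. Neutrophil genes had a mean of 0.18, 0.47 and 0.045 in overfed pools 1 to 3, against -0.12, -0.31 and -0.096 in lean pools 1 to 3. Of the 7 measured of 12 listed, 6 were higher, with a median difference of 0.20 and a mean of 0.41. The alarmin S100a9 at 1.12 (SE 0.41) was the 1 with an unadjusted p under 0.05, against 7.15% of all genes, beside S100a8 at 1.08 and Fcnb at 0.35. S100a9 kept that p in 5 of 12 alternative settings and was at 0.77 without overfed pool 2, where S100a8 was at 0.62.

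Cxcl12, which retains Cxcr4-bearing cells in tissues, overlapped between the groups in each of its 3 probe sets. In 1369633_at it had -0.049, 0.19 and -0.00061 in overfed pools 1 to 3, against -0.28, 0.00061 and 0.012 in lean pools 1 to 3. In 1387655_at it had -0.13, 0.24 and 0.32 in overfed pools 1 to 3, against 0.051, -0.051 and -0.30 in lean pools 1 to 3. In 1388583_at it had -0.20, 0.051 and 0.071 in overfed pools 1 to 3, against -0.27, 0.026 and -0.026 in lean pools 1 to 3. Overfed pool 1 was the lowest overfed pool in all 3, and lean pool 1 was the lowest of all 6 in the first and the third. The differences were 0.14, 0.24 and 0.062, with limma adjusted p-values of 0.88, 0.835 and 0.955. Without overfed pool 1 and lean pool 3 they were 0.23, 0.28 and 0.18, the second with an unadjusted p of 0.036. Without overfed pool 1 alone 1387655_at was at 0.38 (unadjusted p = 0.0229), and without lean pool 3 it was at 0.14.

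Cxcl13, which attracts B cells into lymphoid follicles, had 0.15, -0.15 and -0.24 in overfed pools 1 to 3, against 1.08, -0.80 and 0.23 in lean pools 1 to 3. The lean pools held both the highest and the lowest value of the 6. The SD was 0.20 in overfed pools, against 0.94 in lean pools. The difference was -0.25 (SE 0.42, 95% interval -1.25 to 0.76, limma adjusted p = 0.947), and it was 0.21 without lean pool 1 and -0.73 (unadjusted p = 0.0307) without lean pool 2. Without overfed pool 1 and lean pool 3 it was -0.33. B and plasma cell genes had a median of -0.24 over 6 measured genes, 5 of them lower. Jchain was the lowest at -0.47, and Cd79b was the 1 higher gene at 0.12. Ms4a1 at -0.33, Mzb1 at -0.40 and Pou2af1 at -0.16 had the lowest p-values. The first 2 had an unadjusted p under 0.05 in limma, against 7.15% of all genes. Of the 2, Mzb1 kept that p in 8 of 12 alternative settings. The mean of the genes was -0.27, -0.083 and 0.010 in overfed pools 1 to 3, against 0.16, 0.011 and 0.10 in lean pools 1 to 3. Lean pool 2 was the lowest lean pool for this mean, at 0.011, and for Cxcl13, at -0.80. Among the overfed pools the order was opposite. Overfed pool 1 was the lowest of them for this mean, at -0.27, and the highest for Cxcl13, at 0.15. The part of B cells in the Cxcl13 values was not tested.

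**Figure D3:**
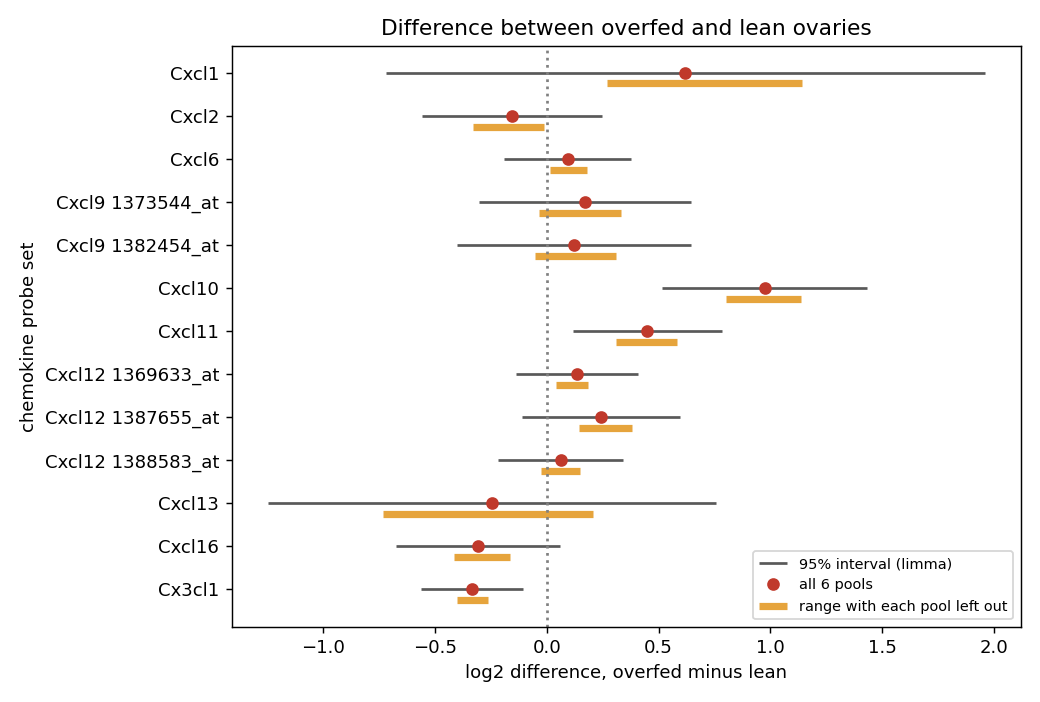
Log2 difference, overfed minus lean, of each chemokine probe set over all 6 pools (red points) with limma's 95% interval (grey lines) and the range of the difference when each pool is left out in turn (orange bars). The intervals of Cxcl10, Cxcl11 and Cx3cl1 leave out 0, and those of Cxcl1 and Cxcl13 are the widest.

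None of the 8 measured of 9 listed receptors had an unadjusted p under 0.05 in limma, against 7.15% of all genes. All 8 were higher in overfed ovaries at 1 probe set each, as were 7423 of all 14217 genes. In 2 of them, Ackr1 and Cxcr2, the groups did not overlap, against 13.1% of all genes. Cxcr3, the receptor of Cxcl9 to Cxcl11, was at 0.020 (SE 0.16), the neutrophil receptors Cxcr1 and Cxcr2 at 0.16 and 0.093, and Cx3cr1 at 0.044. Cxcr4 was at 0.044 (0.026 and -0.023 in its other probe sets), Ackr3 at 0.21 and Cxcr5 at 0.0065. The other probe set of Cxcr5 was at -0.28 (unadjusted p = 0.0806). With quantile normalization Cxcr3, Cxcr4 and the first of these Cxcr5 values turned to -0.050, -0.014 and -0.020. The largest difference was that of Ackr1, a receptor of venular endothelium and red cells that binds chemokines without signalling, at 0.66 (SE 0.31, unadjusted p = 0.0721). Ackr1 had 1.24, 0.11 and 0.037 in overfed pools 1 to 3, against -0.16, -0.38 and -0.037 in lean pools 1 to 3. The groups did not overlap, but overfed pool 1 stood far above the other overfed pools, and without it the difference was 0.27. The limma unadjusted p of Ackr1 was 0.0374 with quantile normalization and 0.037 without overfed pool 3. It was 0.0286 without overfed pool 1 and lean pool 3, where the difference was 0.35.

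The other CXC ligands on the array had 0 members at an unadjusted p under 0.05 in limma, against 7.15% of all genes. The platelet factor Pf4 was at 0.26 and Cxcl14, which attracts myeloid cells, at -0.36 (0.085 in its other probe set). With 1 pool left out, Pf4 ran from 0.16 to 0.40 (limma unadjusted p = 0.00774 without overfed pool 2). The first Cxcl14 value ran from -0.61 (limma unadjusted p = 0.0215 without lean pool 1) to -0.15. The ELR ligand Cxcl3 was at 0.070 and the platelet protein Ppbp at -0.026. The other probe sets of Cxcl3 ran from -0.14 (1388032_a_at) to 0.058 (1370634_x_at), so their sign differed. Also measured were 7 genes that cleave or hold chemokines. They were the sheddases Adam10 and Adam17, the dipeptidyl peptidase Dpp4, the matrix proteases Mmp2 and Mmp9 and the proteoglycans Sdc1 and Sdc4. At 1 probe set each they ranged from -0.17 to 0.13, with 0 at an unadjusted p under 0.05, against 7.15% of all genes. Dpp4, which trims Cxcl10 and Cxcl12, was at 0.0013 in that probe set and at 0.46 (unadjusted p = 0.0551) in its other. Mmp2 was at -0.14 in that probe set and at 0.29 (SE 0.49) in its other, 1370301_at. With 1 pool left out, 1370301_at ran from -0.28 to 0.65.

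Markers of the leukocytes that Cxcr3 ligands and Cx3cl1 attract were set beside them. T and NK cell genes had a median of 0.057 over 13 measured genes, 10 of them higher. With 1 pool left out that median ran from -0.064 (without lean pool 1) to 0.18 (without lean pool 2). An unadjusted p under 0.05 in limma was reached by 0, against 7.15% of all genes. Nkg7 at 0.20, Cd3d at 0.19 and Cd8a at -0.15 had the lowest p-values. The mean of the 13 genes was 0.016, 0.013 and 0.036 in overfed pools 1 to 3, against -0.20, 0.12 and 0.011 in lean pools 1 to 3. Macrophage genes had a median of 0.18 over 10 measured genes, 9 of them higher, with 3 at an unadjusted p under 0.05, against 7.15% of all genes, Mrc1 at 0.40, C1qa at 0.25 and Csf1r at 0.24. Mrc1 kept that p in 12 of 12 alternative settings, C1qa in 4 and Csf1r in 5. The macrophage genes' mean was 0.066, 0.052 and 0.20 in overfed pools 1 to 3, against -0.11, -0.14 and -0.068 in lean pools 1 to 3. Genes of ovarian cells had 2 of 11 measured at an unadjusted p under 0.05, against 7.15% of all genes, the activin subunit Inhba at 0.64 and the androgen-producing enzyme Cyp17a1 at 0.69, followed by Amh at 0.33. Inhba kept that p in 9 of 12 alternative settings and Cyp17a1 in 4. Of the 11 ovarian genes, 8 were higher and 3 lower, and the groups overlapped in each. The 3 lower genes, named after their values were seen, were Star at -0.17, Cyp11a1 at -0.093 and Lhcgr at -0.029. The part of these cell types in the chemokine values was not tested.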

How the data were processed

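The 6 arrays held ovary RNA of 3 overfed and 3 lean pools. The authors deposited log2 values (the base is taken as log2, since the sources used here do not give it); natural logarithms would make the Cxcl10 difference 2.65-fold instead of 1.97-fold. Per the file's values, each of 31099 probe sets had a median of 0 within 1e-06. GCOS is named, without a version, per the submitters' processing notes; the probe set summary and the normalization: not given in the sources used here. After 57 array controls were left out, limma 3.58.1 (R 4.3.3; lmFit, eBayes, no covariate) was fitted to 31042 probe sets, with Benjamini-Hochberg adjustment over all of them at 0.05. Exact permutation tests were two-sided. The table held 0 columns of other series.

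Symbols came from the platform annotation, updated through RefSeq identifiers, with 1 probe set per gene for lists (RefSeq mRNA accession, then probe set type, then lowest identifier). Named were all members, receptors, CXC ligands and processing genes, the 3 genes of lowest p in each other list, and the 5 genes most like Cxcl10. The members and lists were chosen with earlier results of these data known. The fit was tested on simulated data. Same-numbered pools had deviations correlated at 0.097, 0.17 and -0.284, so pool numbers were not treated as pairs. Between pools of different number the correlation ran from -0.417 (overfed pool 1 with lean pool 2) to 0.396 (overfed pool 3 with lean pool 2). The source of these correlations was not tested. No 2 arrays held identical values. Python 3.11.15 and matplotlib 3.10.9 were used. The number of arrays limits the precision.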

Additional observations from a re-analysis of the deposited data

How the results depend on the processing

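The alternatives were 12: normalizing by quantiles, centring arrays on their medians, robust eBayes, weighted arrays, a block on the pool number, each pool left out, and overfed pool 1 with lean pool 3 left out. A filter on dim probe sets was not run, since the values hold no level. In all 12, 0 probe sets of the whole table passed limma's adjusted threshold. The count of member probe sets at an unadjusted p under 0.05 was 3 or 4, between 3 and 4 with 1 pool left out and 4 with the pool number as a block, where Cxcl16 joined the other 3. Cxcl10, Cxcl11 and Cx3cl1 were among them in each alternative except the one without overfed pool 1 and lean pool 3, where Cxcl10 was the 1 shared call and Cxcl12 and Cxcl6 were the others. Of 156 member values, 152 kept direction and 4 changed sign. Their side of the adjusted threshold stayed the same, since 0 probe sets passed it in any setting, so this count concerns direction alone. With 1 pool left out, the probe sets of Cxcl9 ran from -0.034 to 0.33 and from -0.053 to 0.31, Cxcl12 in probe set 1388583_at from -0.027 to 0.15 and Cxcl13 from -0.73 to 0.21. Mx2, Jchain, Cd79b, Star, Cyp11a1, Lhcgr and the other probe sets of Cxcl3, Cxcr4 and Mmp2 are not counted next. Among 55 other named probe sets, 12 changed sign. With 1 pool left out they ran from -0.0066 to 0.34 (Ackr3), -0.0039 to 0.11 (Cx3cr1), -0.12 to 0.28 (Cxcr4), -0.089 to 0.17 (Cxcr3), -0.030 to 0.069 (Cxcr5), -0.053 to 0.0047 (Ppbp), -0.052 to 0.23 (Cxcl14, its other probe set), -0.17 to 0.24 (Dpp4), -0.19 to 0.089 (Sdc1), -0.14 to 0.24 (Adam10), -0.066 to 0.13 (Mmp9) and -0.022 to 0.025 (Ifng). Quantile normalization gave -0.014 for Cxcr4, -0.050 for Cxcr3 and -0.020 for Cxcr5, and median centring gave -0.0016 for Cxcr5 and -0.0067 for Dpp4. Array weights gave -0.0034 for Cxcr3, -0.029 for Cxcr5, -0.030 for Mmp9 and 0.0033 for Ppbp. Without overfed pool 1 and lean pool 3 the values were -0.12 for Cxcr3, -0.041 for Cxcr5, 0.035 for Ppbp, -0.12 for Adam10, -0.12 for Mmp9 and -0.041 for Cxcl14. The cause was not tested.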

Other observations

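The genes whose values over the 6 pools were most like those of Cxcl10, by Pearson correlation over 13973 named genes at 1 probe set each, were the growth factor gene Nrg1 (r = 0.994), the methyltransferase gene Mettl18 (r = 0.992), the adaptor gene Dok2 (r = 0.991), the endoplasmic reticulum cochaperone gene Dnajb11 (r = 0.986) and the nucleotide sugar transporter gene Slc35a3 (r = 0.982). Their differences were 0.20, 0.13, 0.35, 0.25 and 0.35 on the log2 scale, all smaller than that of Cxcl10. With 6 pools, 137 genes, or 0.981%, had a correlation over 0.9, so the ranking is a description.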
